A study of Danio rerio with 12 samples.

Results

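Genes that cardiomyocytes, the contracting cells of the heart, are known for were followed in whole zebrafish larvae with and without a truncating mutation of the tumor suppressor apc. The 10 genes were chosen by name: the sarcomere genes myl7, vmhc, myh6 and tnnt2a, the natriuretic peptide genes nppa and nppb, and the transcription factor genes nkx2.5, gata4, gata5 and tbx5a. Of these, 9 names were matched to 11 of the 25902 rows of the count table. No row was taken for vmhc, because that name could not be tied to a single row. Both myh6 and tnnt2a matched 2 rows each, and these rows are named here with their Ensembl identifiers. Which row of each pair is the zebrafish gene meant was not decided, nor whether either row named myh6 is vmhc. The names of the tnnt2a rows and of the tbx5a row are given without the paralog letter in the table of names (TNNT2 and TBX5). The second tbx5 gene, tbx5b, has a row of its own.

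The RNA-seq comprised 12 poly-A libraries made at 48 hpf, with 3 in each of 4 groups. These were homozygous apc-mcr mutants given vehicle (0.1% DMSO), WT larvae given the same vehicle, apc-mcr mutants given 100 nM rapamycin from 24 hpf, and WT larvae given the same rapamycin. Rapamycin inhibits mTORC1, a kinase complex that promotes growth and translation. The WT groups pooled wild-type embryos with heterozygotes, since mutants were told apart by their shape, and each library was made from 20 embryos. Libraries of a group were stated to be biological replicates from separate clutches, so p-values describe the spread between such pools.

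In the zebrafish heart, myosin motors pull on actin filaments, and the troponin complex on those filaments lets calcium switch contraction on and off. The transcription factors of the Nkx2.5, Gata and Tbx5 families act early in the heart fields and help to turn sarcomere and peptide genes on. The natriuretic peptides are hormones that working heart muscle secretes, and nppa and nppb are also widely used as marks of the maturing chamber wall. Several of these genes are read outside the heart as well: gata4 and gata5 in endoderm, nkx2.5 in the pharyngeal arches, and tbx5a in the pectoral fin buds and the dorsal retina. In whole larvae, fewer cardiomyocytes and less RNA per cardiomyocyte cannot be told apart.

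Levels are given as CPM, counts divided by the scaled total of their library. Total counts on genes ranged from 51692772 to 82364863 per library, and the rows of the 11 cardiomyocyte genes had between 6 and 7564 counts in a library. The lowest counts all belonged to TNNT2 ENSDARG00000100694 (6 to 42), and the next lowest row, gata4, had 38 to 182. APC itself (ENSDARG00000058868), whose mutation shortens the protein and need not remove the transcript, had 96.7, 102 and 73.2 CPM in apc mutants given vehicle, against 127, 127 and 128 CPM in WT larvae given vehicle. Under rapamycin it had 95.1, 77.2 and 76.8 CPM in apc mutants, against 132, 137 and 63.9 CPM in WT larvae, so that WT rapamycin replicate 3 lay below the mutants in APC. The libraries WT rapamycin replicate 2 and WT rapamycin replicate 3 stood apart from the others. Replicate 2 was the shallowest, and a single gene took 12.9% of its counts, whereas the top gene took 1.44 to 2.53% elsewhere. Replicate 3 had the lowest TMM scaling factor (0.849), and it held the highest level among the 12 libraries for 5 of the 11 cardiomyocyte rows and the lowest for 2. In WT vehicle replicate 2, il11a, a gene that was abundant in apc mutants given vehicle (496 to 956 raw counts), had 30 raw counts, against 3 and 3 in the other WT libraries given vehicle. In WT rapamycin replicate 3 it had 41 raw counts, against 11 in replicate 1 and 2 in replicate 2 of that group. The apc mutants given rapamycin had 535 to 832 raw counts of il11a. Genotype calls of cardiomyocyte rows that changed without WT vehicle replicate 2 or WT rapamycin replicate 2 or 3 are given both ways.

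To ask how the mutation was related to cardiac transcripts at 48 hpf, apc mutants and WT larvae given vehicle were compared. The sarcomere gene myl7 and both rows named myh6 were lower in apc mutants, and tbx5a was higher. The other transcription factor genes and the natriuretic peptide genes did not pass the test. In a fit with the replicate number as a block, which the main fit did not have, nppa did pass. With edgeR's quasi-likelihood test and Benjamini-Hochberg adjustment over the 22335 genes tested, 4 of the 11 rows passed at an adjusted p under 0.05, 1 of them higher and 3 lower, where 28.4% of all genes tested did (14.8% higher and 13.6% lower). All 11 rows passed the filter on low counts. None of the 11 met the threshold used for called genes, an adjusted p under 0.05 with a change of at least 2-fold, which 7.95% of all genes met. DESeq2 likewise found 0 rows at that threshold and 4 at an adjusted p under 0.05, and 5 rows had an unadjusted p under 0.05 in edgeR, where 39.3% of all genes did. The levels in the 2 genotypes did not overlap for 6 rows (2 higher and 4 lower in apc mutants), where this held for 43.8% of all genes (22.1% higher and 21.7% lower). The median log2 fold change was −0.0894 over the 11 rows and −0.00426 over all genes.

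**Figure D1:**
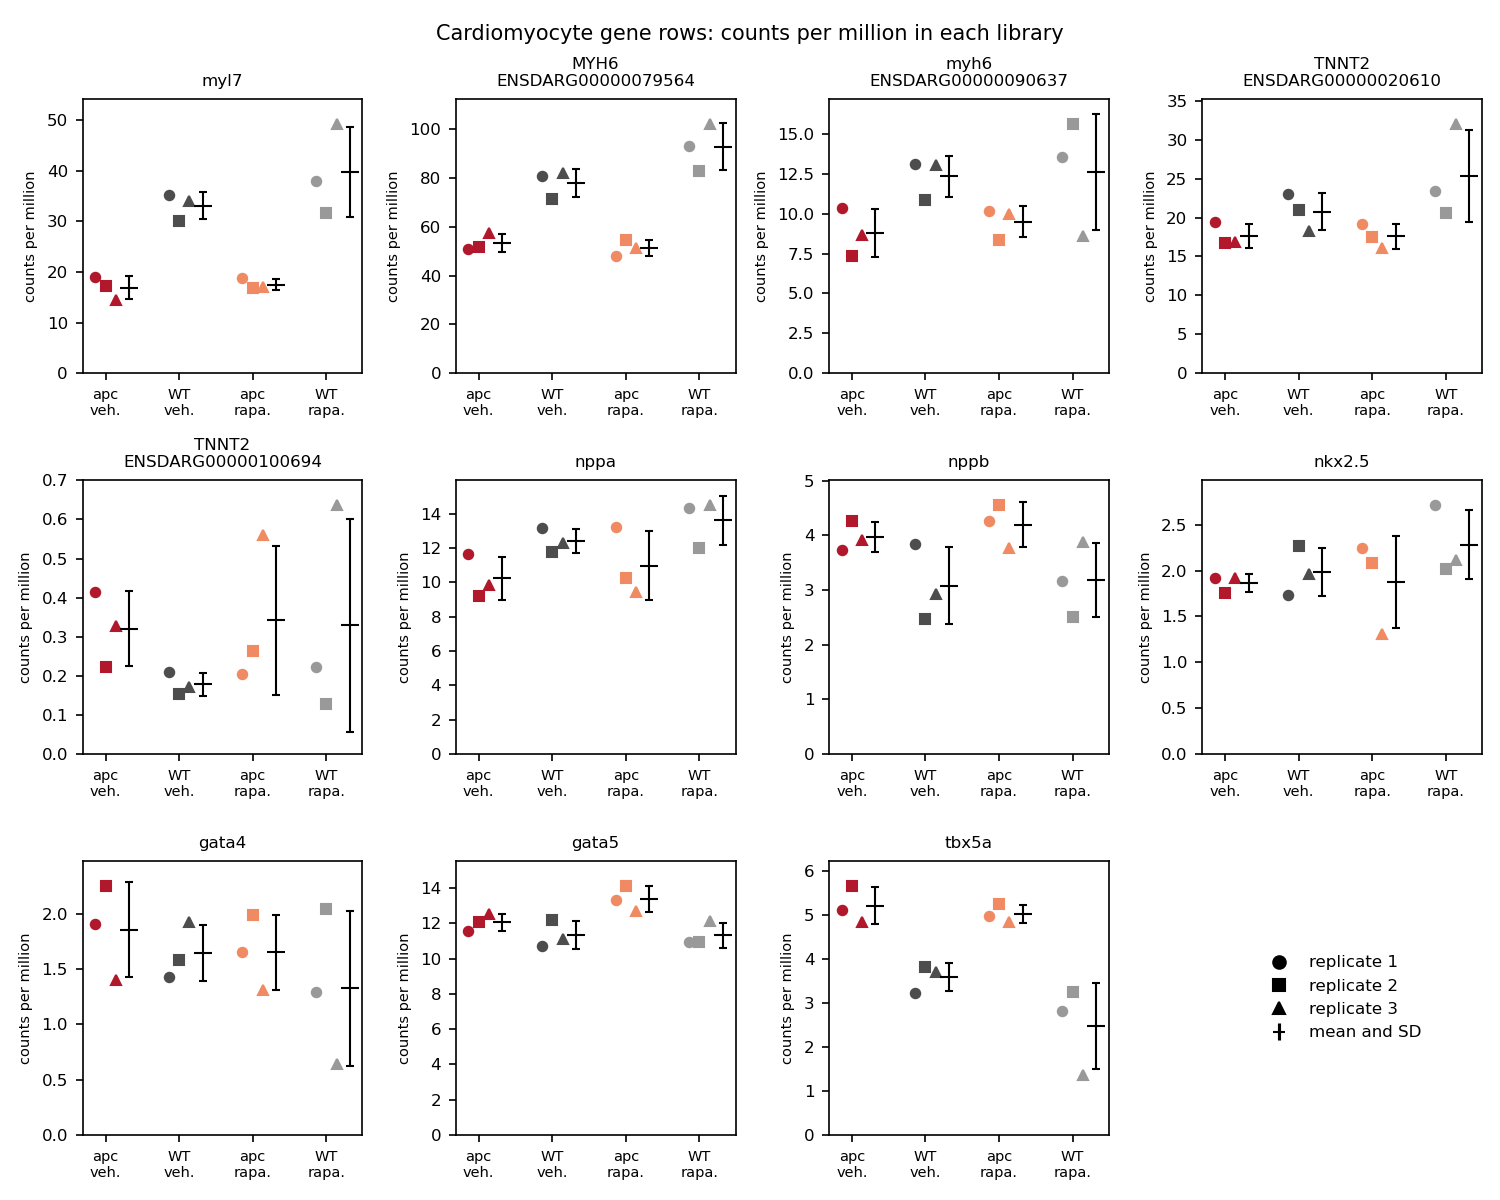
Level of each cardiomyocyte gene row in every library, in CPM (vertical axes, linear and starting at 0), with apc mutants left of WT larvae for vehicle and for rapamycin; symbols mark the replicate number, and the bar beside each group is its mean with SD (n = 3). In vehicle, myl7 lay between 14.4 and 19.0 CPM in apc mutants and between 30.1 and 35.3 CPM in WT larvae, whereas the gata5 levels of the genotypes overlapped.

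The gene myl7, which encodes the regulatory myosin light chain of the heart and is read in atrium and ventricle alike, had the lowest fold change of the 11 rows. It measured 19.0, 17.3 and 14.4 CPM in apc mutants given vehicle, against 35.3, 30.1 and 34.0 CPM in WT larvae given vehicle. Every mutant library thus lay below every WT library, and the gap between the groups was wider than the range within either. The means were 16.9 ± 2.30 CPM in apc mutants and 33.2 ± 2.7 CPM in WT larvae (SD, n = 3 each), a log2 fold change of −0.97 (SE 0.12, 95% interval −1.24 to −0.71, edgeR adjusted p = 0.000449). This is a 1.97-fold lower level, just short of the 2-fold threshold, and leaving out apc vehicle replicate 1 or WT vehicle replicate 2 carried it past that threshold (lowest log2 fold change −1.06, highest −0.87 over the 6 libraries left out in turn).

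Myosin heavy chain is the motor protein of the thick filament, and myh6 is its atrial form in the zebrafish heart. The row ENSDARG00000079564 carries the human-style symbol MYH6, and ENSDARG00000090637 the zebrafish-style name myh6. Since it was not decided which is the zebrafish atrial gene, neither row is read as a level of atrial myosin. Whether either is the ventricular gene vmhc was not decided either. MYH6 ENSDARG00000079564 had 50.9, 51.6 and 57.6 CPM in apc mutants, against 80.8, 71.3 and 81.9 CPM in WT larvae. The second row of that name, myh6 ENSDARG00000090637, had 10.4, 7.36 and 8.68 CPM in apc mutants and 13.1, 10.9 and 13.1 CPM in WT larvae. Both rows were lower in each mutant library than in each WT library, although for ENSDARG00000090637 the highest mutant and the lowest WT library nearly met. The log2 fold changes were −0.55 for ENSDARG00000079564 (SE 0.09, edgeR adjusted p = 0.00245) and −0.49 for ENSDARG00000090637 (SE 0.14, edgeR adjusted p = 0.0325). The call for ENSDARG00000090637 was lost when apc vehicle replicate 2, apc vehicle replicate 3, WT vehicle replicate 1 or WT vehicle replicate 3 was left out (highest adjusted p = 0.11), and with all 12 libraries in 1 model (adjusted p = 0.137). How reads shared between these 2 rows, or with other myosin genes, were divided is not known, so the rows are uncertain as separate measurements. Their ratio within a library carries no scaling. On the log2 scale, ENSDARG00000079564 over ENSDARG00000090637 was 2.61 ± 0.278 in apc mutants and 2.66 ± 0.0476 in WT larvae (SD, n = 3 each), and the difference of −0.05 had p = 1.0 by a two-sided exact permutation test, which with 3 libraries against 3 cannot go below 0.1.

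Troponin T anchors the troponin complex to the thin filament, and tnnt2a is its cardiac form. TNNT2 ENSDARG00000020610 had 19.4, 16.7 and 16.9 CPM in apc mutants, against 23.0, 21.0 and 18.3 CPM in WT larvae. The genotypes overlapped, because the lowest WT library lay under the highest mutant library, and the log2 fold change of −0.24 (SE 0.11) had an edgeR adjusted p of 0.148. Within replicate numbers its log2 ratio of mutant to WT was −0.24, −0.33 and −0.12, lower in 3 of 3, and with the replicate block the adjusted p was 0.0509. TNNT2 ENSDARG00000100694 was scarce, with 0.413, 0.223 and 0.327 CPM in apc mutants and 0.211, 0.153 and 0.172 CPM in WT larvae. The wide SE of 0.38 around its log2 fold change, 0.83, left it short of the test (edgeR adjusted p = 0.138), so at this depth neither direction could be called for it.

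The natriuretic peptide genes had log2 fold changes of opposite sign. The gene nppa, which encodes the atrial natriuretic peptide, had 11.6, 9.19 and 9.84 CPM in apc mutants and 13.2, 11.8 and 12.3 CPM in WT larvae. All 3 mutant libraries were below all 3 WT libraries, by little, and the log2 fold change was −0.28 (SE 0.12, edgeR adjusted p = 0.102, under 0.05 before adjustment). With the replicate number as a block in the fit, nppa did pass (log2 fold change −0.29, adjusted p = 0.0353), and so it did without apc vehicle replicate 1 (adjusted p = 0.0458). The gene nppb, which encodes the B-type peptide, had 3.73, 4.27 and 3.91 CPM in apc mutants and 3.84, 2.47 and 2.93 CPM in WT larvae. WT replicate 1 was as high as the mutant libraries and the other 2 WT libraries were lower, and the log2 fold change of 0.36 (SE 0.18) had an edgeR adjusted p of 0.166. In the RefSeq annotation of GRCz12tu, nppal, nppb, nppa and clcn6 lie next to each other in this order. The other natriuretic peptide rows, chosen after their values were seen, were nppal, nppcl and nppc. Of these, nppal had 1.14, 0.779 and 1.12 CPM in apc mutants and 1.38, 1.08 and 1.21 CPM in WT larvae (log2 fold change −0.27, edgeR adjusted p = 0.432). The C-type peptide gene nppc had 13.5, 9.58 and 18.5 CPM in apc mutants and 3.49, 3.93 and 3.21 CPM in WT larvae, 3.91-fold higher (log2 fold change 1.97, SE 0.22, edgeR adjusted p = 0.000344). A further row, nppcl, was lower, with a mean of 0.269 ± 0.0815 CPM in apc mutants and 0.668 ± 0.182 CPM in WT larvae (SD, n = 3 each; log2 fold change −1.30, edgeR adjusted p = 0.0235, up to 0.0951 with a library left out). C-type peptides are known from brain, vessels and growing cartilage in mammals, in contrast to the heart muscle hormones nppa and nppb.

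Among the transcription factor genes, tbx5a was the only row to pass the test. Tbx5 proteins bind DNA through a T-box and are needed for heart looping and for the pectoral fin buds in zebrafish. The levels of tbx5a were 5.12, 5.66 and 4.84 CPM in apc mutants, against 3.22, 3.82 and 3.71 CPM in WT larvae. The lowest mutant library was above the highest WT library, with means of 5.21 ± 0.419 CPM in apc mutants and 3.58 ± 0.317 CPM in WT larvae (SD, n = 3 each). The log2 fold change was 0.54 (SE 0.13, 95% interval 0.24 to 0.83, edgeR adjusted p = 0.0145), a 1.45-fold higher level. Without WT vehicle replicate 1 the adjusted p was 0.062, and with all 12 libraries in 1 model it was 0.168. The paralog tbx5b was scarce, with 0.499, 0.433 and 0.288 CPM in apc mutants and 0.545, 0.713 and 0.48 CPM in WT larvae, and did not pass (log2 fold change −0.51, SE 0.32, edgeR adjusted p = 0.272).

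The homeobox gene nkx2.5, a marker of cardiac progenitors and of heart muscle, had 1.92, 1.76 and 1.92 CPM in apc mutants and 1.73, 2.27 and 1.96 CPM in WT larvae. The zinc finger genes gata4 and gata5, which in zebrafish also act in endoderm formation, had 1.91, 2.25 and 1.40 CPM and 11.6, 12.1 and 12.5 CPM in apc mutants, against 1.43, 1.58 and 1.92 CPM and 10.7, 12.2 and 11.1 CPM in WT larvae. For each of the 3 genes the levels of the genotypes overlapped. The 95% intervals of the log2 fold changes were −0.47 to 0.30 for nkx2.5, −0.33 to 0.67 for gata4 and −0.13 to 0.30 for gata5, so a 2-fold difference lay outside all 3, whereas smaller differences did not.

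**Figure D2:**
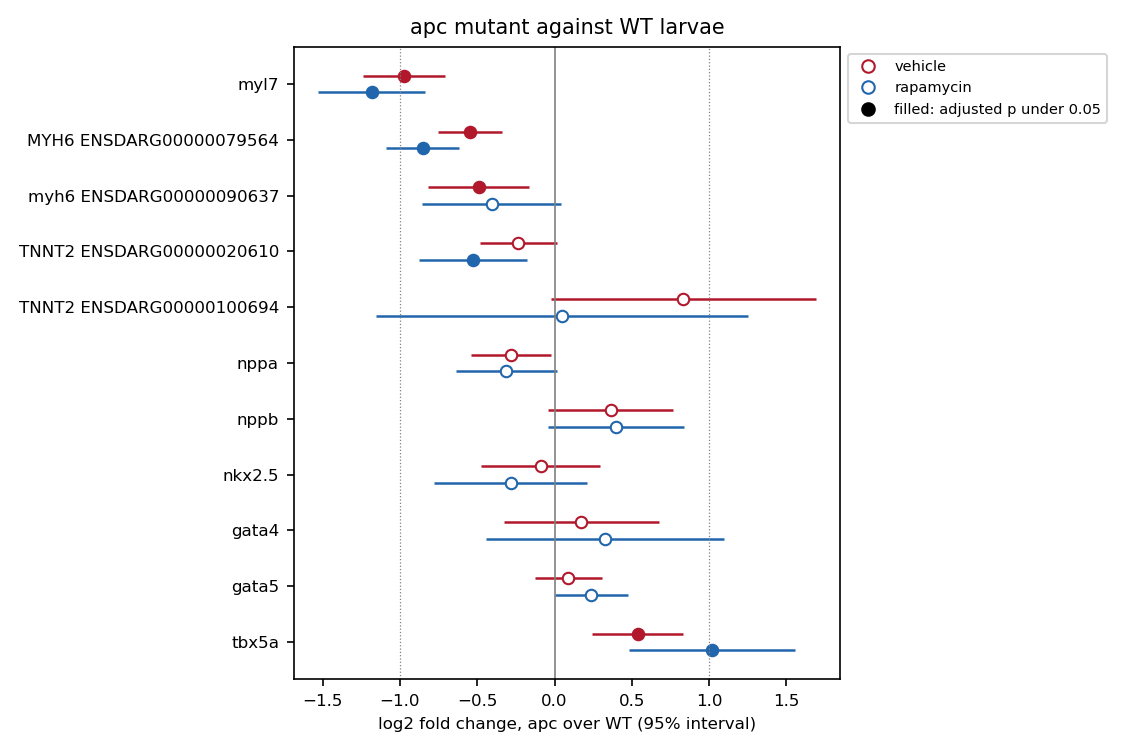
Log2 fold change of each cardiomyocyte gene row, apc mutants over WT larvae, in vehicle and in rapamycin (horizontal axis; points are edgeR estimates, filled at an adjusted p under 0.05, and bars their 95% intervals), with dotted lines at a 2-fold change. myl7 and MYH6 ENSDARG00000079564 lay below 0 and tbx5a above 0 in both comparisons, and the widest intervals belonged to TNNT2 ENSDARG00000100694.

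The same comparison in larvae given rapamycin used 6 other libraries, with the spread estimated from all 12. Libraries with the same replicate number were correlated across groups, so this comparison is not an independent repeat. The same 3 directions were seen for myl7, MYH6 ENSDARG00000079564 and tbx5a, and 2 rows met the 2-fold threshold: myl7 was lower and tbx5a was higher in apc mutants. Of all 22841 genes tested, 7.64% met that threshold (3.84% higher and 3.8% lower). Without a fold minimum, 4 of 11 rows passed at an adjusted p under 0.05 (1 higher and 3 lower), where 17.4% of all genes did (9.11% higher and 8.28% lower). The genotypes did not overlap for 5 rows (2 higher and 3 lower), where they did not for 29.1% of all genes (15.3% higher and 13.7% lower). The median log2 fold change was −0.285 over the 11 rows and −0.0282 over all genes. Without WT rapamycin replicate 3, 0 rows met the 2-fold threshold, and without replicates 2 and 3 of that group, a setting chosen after the data were seen, 1 did.

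Under rapamycin, myl7 had 18.8, 16.8 and 17.0 CPM in apc mutants, against 38.1, 31.8 and 49.3 CPM in WT larvae. The mutant libraries were close to each other, and WT replicate 3 was the highest of all 12 libraries. The log2 fold change was −1.18 (SE 0.16, 95% interval −1.53 to −0.84, edgeR adjusted p = 0.000283) and ran from −1.35 to −0.98 when each library was left out in turn, with an adjusted p of at most 0.00249. MYH6 ENSDARG00000079564 had 48.0, 54.6 and 51.4 CPM in apc mutants, against 93.0, 83.0 and 102 CPM in WT larvae. Again no mutant library reached a WT library, and the log2 fold change was −0.85 (SE 0.11, edgeR adjusted p = 0.000191).

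The second myosin row, myh6 ENSDARG00000090637, had 10.1, 8.36 and 9.96 CPM in apc mutants given rapamycin, against 13.6, 15.6 and 8.57 CPM in WT larvae given rapamycin. Here WT replicate 3, the highest library for the other sarcomere rows, was the lowest of its group, and the genotypes overlapped (log2 fold change −0.41, SE 0.21, edgeR adjusted p = 0.211). Without that library the row passed the test (adjusted p = 0.0108, log2 fold change −0.60). In the same library the log2 ratio of ENSDARG00000079564 to ENSDARG00000090637 was 3.58, against 2.78 in replicate 1 and 2.41 in replicate 2. The mean log2 ratio was 2.44 ± 0.24 in apc mutants and 2.92 ± 0.598 in WT larvae (SD, n = 3 each), a difference of −0.48 (two-sided exact permutation p = 0.2). That WT mean includes the 3.58 of replicate 3. TNNT2 ENSDARG00000020610 had 19.2, 17.5 and 16.0 CPM in apc mutants given rapamycin, against 23.4, 20.6 and 32.1 CPM in WT larvae given rapamycin. It passed the test (log2 fold change −0.53, SE 0.16, edgeR adjusted p = 0.0402), but the call was lost when any library other than WT rapamycin replicate 2 was left out (highest adjusted p = 0.133). TNNT2 ENSDARG00000100694 ranged from 0.205 to 0.56 CPM in apc mutants and from 0.128 to 0.637 CPM in WT larvae, and its log2 fold change of 0.05 (SE 0.55) became negative when any of 3 libraries was left out and with upper-quartile scaling.

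The gene tbx5a had 4.97, 5.24 and 4.85 CPM in apc mutants given rapamycin, against 2.82, 3.25 and 1.38 CPM in WT larvae given rapamycin. The mutant libraries differed by little and all lay above the WT libraries, of which replicate 3 was far below the other 2. The log2 fold change was 1.02 (SE 0.25, 95% interval 0.48 to 1.56, edgeR adjusted p = 0.0139). Without WT rapamycin replicate 3 it was 0.75, and each adjusted p stayed under 0.05 when a library was left out (highest 0.0467). In a fit of these 6 libraries alone, however, the adjusted p was 0.0931.

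For the natriuretic peptides, nppa had 13.2, 10.3 and 9.44 CPM in apc mutants given rapamycin and 14.4, 11.97 and 14.5 CPM in WT larvae given rapamycin, and nppb had 4.27, 4.56 and 3.76 CPM in apc mutants and 3.16, 2.51 and 3.87 CPM in WT larvae. Both genes overlapped between genotypes, with log2 fold changes of −0.31 for nppa (edgeR adjusted p = 0.192) and 0.40 for nppb (edgeR adjusted p = 0.217). Without WT rapamycin replicate 3, nppb passed the test (adjusted p = 0.0493). The remaining factors nkx2.5, gata4 and gata5 did not pass with all libraries, with log2 fold changes of −0.28, 0.33 and 0.24. The gata5 levels of 13.3, 14.1 and 12.7 CPM in apc mutants given rapamycin were all above the 10.9, 10.9 and 12.1 CPM in WT larvae given rapamycin (edgeR adjusted p = 0.162, under 0.05 before adjustment), and gata5 passed without WT rapamycin replicate 3 (adjusted p = 0.0386).

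To place the 11 rows among other cardiac genes, lists of further genes were read from the same fits. Of 26 rows of the cardiac sarcomere and calcium handling tested in vehicle, 12 passed the test as lower in apc mutants (13.6% of all genes did) and 3 as higher (14.8% of all genes), and 11 did not pass, with a median of −0.326 on the log2 scale. Under rapamycin 13 were lower (8.28% of all genes) and 2 higher (9.11%), with a median of −0.525. Leaving out apc rapamycin replicate 1, 2 or 3 left 6 lower rows each time. In vehicle the lower rows numbered 8 to 12 with each library left out in turn. The shares of all genes given here come from fits with all libraries, so they are not set beside these counts. The summed level of the list overlapped between the genotypes, with 4526 to 5354 CPM in apc mutants and 4693 to 5148 CPM in WT larvae given vehicle. Under rapamycin it was 4534 to 5454 CPM in apc mutants and 5418 to 8704 CPM in WT larvae. Abundant rows weigh most in these sums. Skeletal muscle shares several sarcomere genes with the heart, and its part in this list was not tested. The titin rows TTN ENSDARG00000000563 and ENSDARG00000028213 had 2928 and 3096 CPM in WT rapamycin replicate 2. They had 1255 and 1410 CPM in replicate 1 and 706 and 1052 CPM in replicate 3 of that group. The ventricular myosin heavy chain-like gene vmhcl had the lowest value, with 14.6, 13.9 and 7.0 CPM in apc mutants given vehicle, against 49.6, 39.7 and 31.7 CPM in WT larvae given vehicle. Its log2 fold change was −1.77 in vehicle (SE 0.27, edgeR adjusted p = 0.00146) and −2.06 under rapamycin (edgeR adjusted p = 0.000644), which placed every mutant library under every WT library. Cardiac troponin C (tnnc1a), the calcium sensor of the thin filament, had 3.28, 3.05 and 2.86 CPM in apc mutants and 7.94, 5.54 and 6.81 CPM in WT larvae given vehicle (log2 fold change −1.14, edgeR adjusted p = 0.000906). The ryanodine receptor gene ryr2b, a calcium release channel, was lower in vehicle (log2 fold change −1.30, edgeR adjusted p = 0.00195). Under rapamycin ryr2b had 1.11, 0.964 and 1.08 CPM in apc mutants and 1.53, 4.29 and 1.01 CPM in WT larvae, which overlapped. It did not pass with all libraries (log2 fold change −1.10, SE 0.42, edgeR adjusted p = 0.0964). Without WT rapamycin replicate 3 it passed (log2 fold change −1.43, edgeR adjusted p = 0.00904). Without WT rapamycin replicate 2, which held the 4.29 CPM, its log2 fold change was −0.30 (edgeR adjusted p = 0.454). The essential light chain genes cmlc1 and myl4 were lower as well, with log2 fold changes of −0.69 and −0.76 in vehicle (edgeR adjusted p = 0.00465 and 0.00437). Under rapamycin these were −0.90 and −0.75 (edgeR adjusted p = 0.00658 and 0.0439). The call of myl4 under rapamycin was lost with a library left out (highest adjusted p = 0.151).

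In the opposite direction stood desma, which encodes the intermediate filament desmin of all striated muscle, with 810, 685 and 870 CPM in apc mutants and 349, 349 and 342 CPM in WT larvae given vehicle (log2 fold change 1.19, SE 0.10, edgeR adjusted p = 6.61e-05). The troponin T gene tnnt2c (0.82) and the tropomyosin gene tpm4a (0.63) were higher in vehicle too (edgeR adjusted p = 0.00173 and 0.0144). Thus the tnnt2 family was not uniform in apc mutants given vehicle. There tnnt2c was higher, tnnt2d was lower (log2 fold change −0.44, edgeR adjusted p = 0.013), and neither TNNT2 row passed. The vehicle calls of tpm4a and tnnt2d were lost with 1 library left out (highest adjusted p = 0.0568 and 0.0623). Under rapamycin desma (1.08) and tnnt2c (0.76) were higher (edgeR adjusted p = 0.000392 and 0.00796), whereas tpm4a did not pass (0.23, edgeR adjusted p = 0.489). The titin row TTN ENSDARG00000028213 was the third lowest gene of the list that passed under rapamycin (log2 fold change −1.02, edgeR adjusted p = 0.0302), with 935, 882 and 917 CPM in apc mutants and 1410, 3096 and 1052 CPM in WT larvae. The highest of these was WT rapamycin replicate 2, which also stood apart in depth, and without it the log2 fold change was −0.46 (adjusted p = 0.0266). The call was lost when any of the 3 mutant libraries was left out (highest adjusted p = 0.0947), and for the same row in vehicle edgeR gave −0.21 on the log2 scale (adjusted p = 0.0782).

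**Figure D3:**
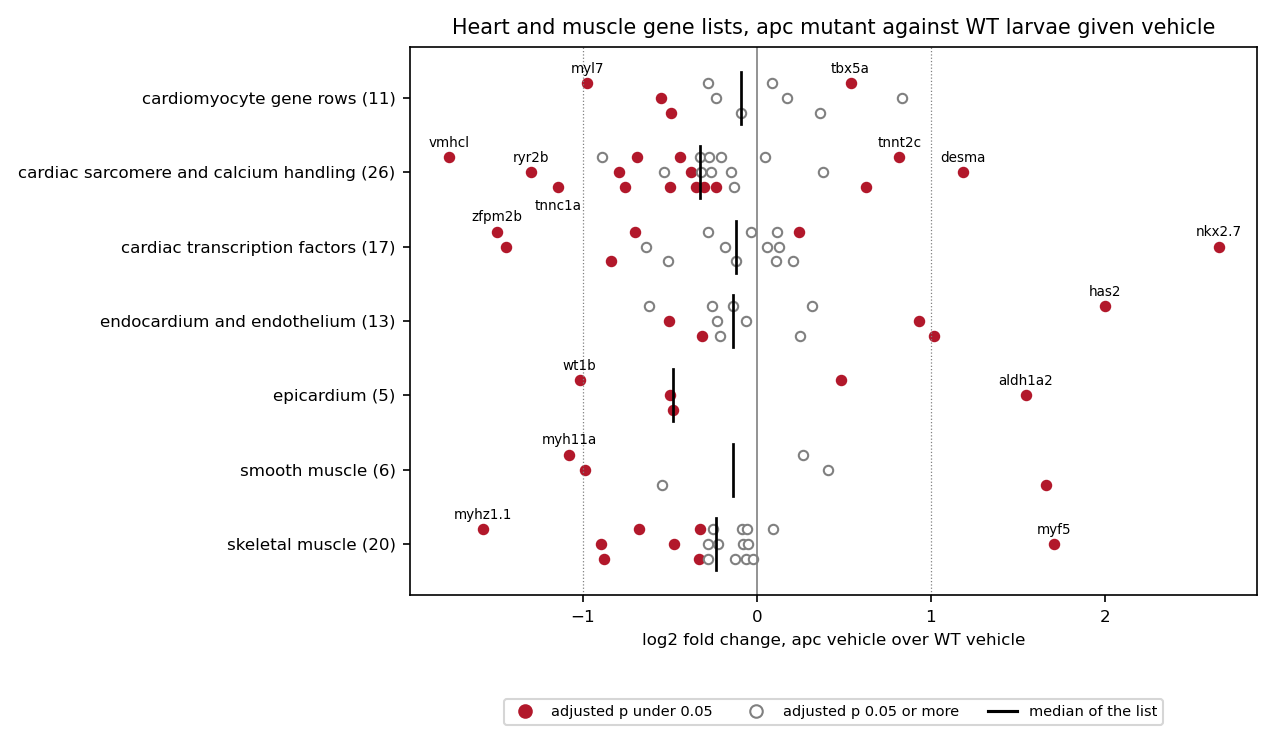
Log2 fold change in apc mutants over WT larvae given vehicle (horizontal axis) for the cardiomyocyte gene rows and for lists of other heart and muscle genes; each point is a gene, filled at an edgeR adjusted p under 0.05, and the vertical bars are list medians, with the number of genes tested in parentheses. The cardiac sarcomere list ran from −1.77 (vmhcl) to 1.19 (desma), and the highest point of the plot was nkx2.7 at 2.65.

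Of 17 further cardiac transcription factor rows tested in vehicle, 2 were higher and 4 lower, and 11 did not pass (median −0.122), and under rapamycin 2 of 18 were higher and 3 lower. The share that passed, 6 of 17 in vehicle and 5 of 18 under rapamycin, stood beside 28.4% and 17.4% of all genes, so nothing particular to this list is read from it. The homeobox gene nkx2.7, a relative of nkx2.5 that is also read in the pharyngeal arches and endoderm, had 14.3, 10.4 and 17.5 CPM in apc mutants given vehicle, against 1.77, 3.09 and 1.85 CPM in WT larvae given vehicle. That was a log2 fold change of 2.65 in vehicle (edgeR adjusted p = 0.000146) and of 2.71 under rapamycin (edgeR adjusted p = 3.68e-05), while nkx2.5 passed in neither. The Gata cofactor genes zfpm2a and zfpm2b were lower, with log2 fold changes of −1.44 and −1.49 in vehicle (edgeR adjusted p = 7.19e-05 and 6.45e-05), and −1.53 and −1.48 under rapamycin (edgeR adjusted p = 0.000483 and 9.99e-05). The levels of zfpm2b in vehicle were 8.05, 8.37 and 6.29 CPM in apc mutants and 20.0, 20.8 and 23.1 CPM in WT larvae. ISL1, known from late-differentiating heart progenitors and from sensory and motor neurons, was lower, with log2 fold changes of −0.84 in vehicle and −0.79 under rapamycin (edgeR adjusted p = 0.000277 and 0.000432). TBX2 ENSDARG00000018025 was higher in vehicle (0.24, edgeR adjusted p = 0.0343, up to 0.122 with a library left out) and TBX3 under rapamycin (0.45, edgeR adjusted p = 0.00895).

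Among markers of the other cells of the heart, genes of both directions passed the test in vehicle. Of 13 endocardial and endothelial genes, 3 were higher and 2 lower, and 8 did not pass, where 28.4% of all genes passed. The hyaluronan synthase gene has2, which builds the matrix of the valve cushions, had 9.39, 8.70 and 13.7 CPM in apc mutants and 2.29, 2.56 and 3.08 CPM in WT larvae given vehicle (log2 fold change 2.0, edgeR adjusted p = 0.000174). bmp4 (1.02) and EGFL7 (0.93) were higher too (edgeR adjusted p = 4.05e-05 and 0.00227), and FLI1 (−0.51) and kdrl (−0.31) were lower (edgeR adjusted p = 0.00263 and 0.0186). Under rapamycin has2, bmp4 and EGFL7 were higher, 3 of the 13, where 9.11% of all genes were higher. Of the 13, 0 were lower, where 8.28% of all genes were. Without WT rapamycin replicate 3, 2 of the 13 were lower, among them FLI1 (−0.28, edgeR adjusted p = 0.0425). No share of all genes is given for that fit. Of the 5 epicardial genes, aldh1a2 (1.55) and TBX18 (0.48) were higher and wt1b (−1.02), WT1 (−0.50) and TCF21 (−0.48) were lower in vehicle, all at an edgeR adjusted p of at most 0.0469. Only aldh1a2 (1.54) and TBX18 (0.84) passed under rapamycin, where 17.4% of all genes passed. With a library left out, the calls of kdrl, TBX18, WT1 and TCF21 in vehicle and of EGFL7 and TBX18 under rapamycin were lost (highest adjusted p = 0.099, 0.143, 0.181, 0.16, 0.0715 and 0.112). None of these names is confined to the heart.

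Skeletal muscle, which shares several sarcomere genes with the heart and makes up much of the larva, was read from a list of its own, and its part in the results was not tested. Of 20 skeletal muscle rows tested in vehicle, 7 were lower and 1 higher in apc mutants and 12 did not pass (median −0.237), where 13.6% of all genes were lower and 14.8% higher. Under rapamycin 6 were lower and 1 higher and 13 did not pass, where 8.28% of all genes were lower and 9.11% higher. Without apc rapamycin replicate 2 or 3 the lower rows numbered 3, and no share of all genes is given for those fits. Summed over the list, the level was 74500 to 84090 CPM in apc mutants and 90570 to 99790 CPM in WT larvae given vehicle, without overlap. Under rapamycin the sums overlapped, with 72720 to 94560 CPM in apc mutants and 84510 to 116900 CPM in WT larvae. The myogenic factor genes MYOD1 (−0.88) and MYOG (−0.90) and the myosin row myhz1.1 ENSDARG00000102414 (−1.57) were lower in vehicle, while myf5 (1.71), the factor of early muscle precursors, was higher, all at an edgeR adjusted p of at most 0.00174. Under rapamycin the log2 fold changes of these genes were −0.84, −0.997, −1.79 and 1.47. The other row named myhz1.1, ENSDARG00000067990, was far more abundant, with means of 16380 CPM in apc mutants and 19880 CPM in WT larvae given vehicle. It did not pass in vehicle (log2 fold change −0.28, edgeR adjusted p = 0.0982) or under rapamycin (−0.39, edgeR adjusted p = 0.148). Of 6 smooth muscle genes tested, 2 were lower and 1 higher in either comparison. Of all genes, 13.6% were lower and 14.8% higher in vehicle, and 8.28% and 9.11% under rapamycin. The smooth muscle genes that were lower were myh11a (−1.08 in vehicle, −0.92 under rapamycin) and myl9a (−0.99 in vehicle, −1.12 under rapamycin). The higher gene was cnn1b, whose counts averaged 99.75 per library. Its log2 fold changes were 1.66 in vehicle and 1.46 under rapamycin (edgeR adjusted p = 0.00127 and 0.00458). The sum over the 11 cardiomyocyte rows was 128 to 136 CPM in apc mutants and 168 to 187 CPM in WT larvae given vehicle, and 128 to 136 CPM in apc mutants and 184 to 228 CPM in WT larvae given rapamycin. Abundant rows weigh most in it. In vehicle, MYH6 ENSDARG00000079564 had means of 53.4 CPM in apc mutants and 78.0 CPM in WT larvae, and myl7 had 16.9 and 33.2 CPM. Since 5 of the 11 rows had log2 fold changes above 0 in vehicle, the sum does not describe the rows as a set.

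To ask whether rapamycin changed these genes, treated larvae were compared with vehicle larvae of the same genotype. No cardiomyocyte row had an adjusted p under 0.05 in WT larvae, in apc mutants or in the interaction of genotype and rapamycin, nor did any of the 22841 genes tested with edgeR (0% of all genes in each). In WT larvae 1 row, MYH6 ENSDARG00000079564, had an unadjusted p under 0.05, where 6.1% of all genes did. In apc mutants 0 rows did (0.657% of all genes), and in the interaction 0 rows did (1.59% of all genes). DESeq2 called 0 rows in all 3.

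**Figure D4:**
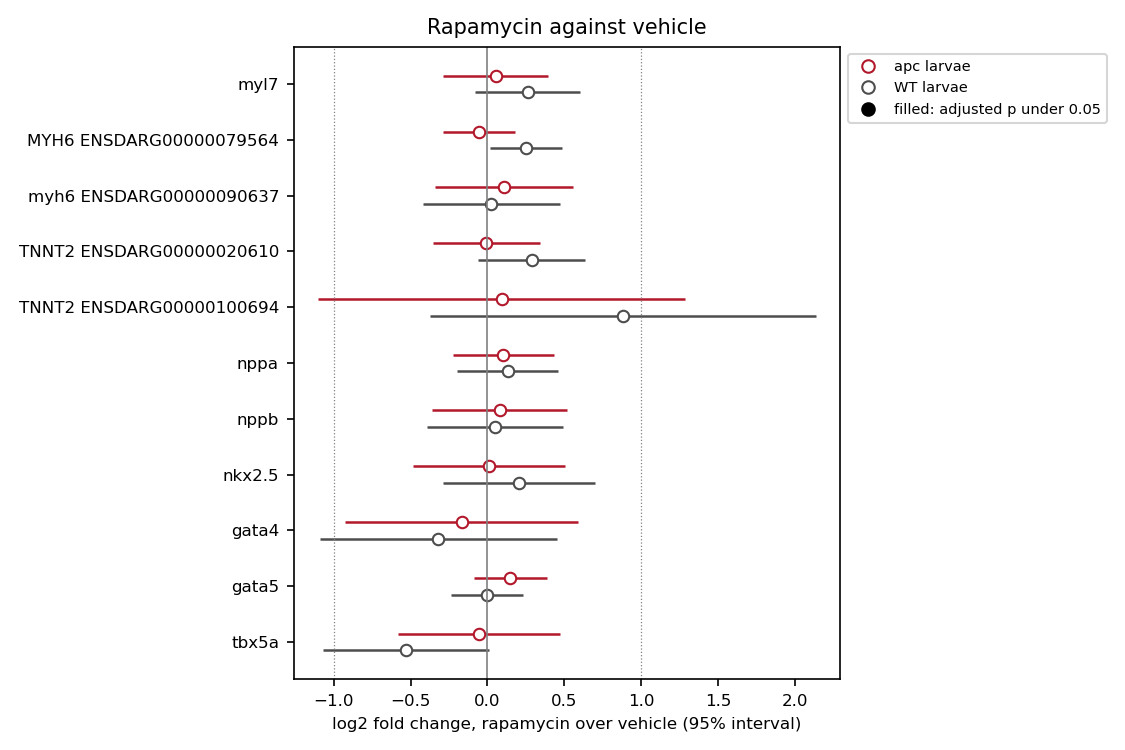
Log2 fold change of each cardiomyocyte gene row with rapamycin over vehicle in apc mutants and in WT larvae (horizontal axis; points are edgeR estimates, all open because no adjusted p was under 0.05, and bars their 95% intervals), with dotted lines at a 2-fold change. In apc mutants the points other than TNNT2 ENSDARG00000100694 lay between −0.17 and 0.15, and in WT larvae between −0.53 and 0.29.

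In apc mutants the 10 rows other than TNNT2 ENSDARG00000100694 had log2 fold changes of −0.17 (gata4) to 0.15 (gata5) with rapamycin over vehicle, with SEs of 0.11 to 0.35. The levels of the treatments overlapped for all rows but gata5, which had 13.3, 14.1 and 12.7 CPM in mutants given rapamycin and 11.6, 12.1 and 12.5 CPM in mutants given vehicle, and such a separation was seen for 4.41% of all genes. For myl7 the log2 fold change in mutants was 0.05 (95% interval −0.29 to 0.40), and for tbx5a it was −0.05 (95% interval −0.58 to 0.48). In WT larvae the same 10 rows ranged from −0.53 (tbx5a) to 0.29 (TNNT2 ENSDARG00000020610), with SEs of 0.11 to 0.35. MYH6 ENSDARG00000079564 had 93.0, 83.0 and 102 CPM in WT larvae given rapamycin and 80.8, 71.3 and 81.9 CPM in WT larvae given vehicle. These did not overlap, as was seen for 10.7% of all genes, and the log2 fold change was 0.25 (95% interval 0.02 to 0.48, edgeR adjusted p = 0.79). For tbx5a the 2.82, 3.25 and 1.38 CPM in WT larvae given rapamycin overlapped with the 3.22, 3.82 and 3.71 CPM in WT larvae given vehicle (log2 fold change −0.53, 95% interval −1.07 to 0.01). With each library left out in turn, this log2 fold change ran from −0.74 to −0.25.

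The difference between the genotypes was larger under rapamycin than in vehicle for myl7, MYH6 ENSDARG00000079564 and tbx5a by the estimates alone. The interaction term, which tests that difference, was −0.21 for myl7 (95% interval −0.69 to 0.28), −0.31 for MYH6 ENSDARG00000079564 (95% interval −0.64 to 0.03) and 0.48 for tbx5a (95% interval −0.27 to 1.23), each with an edgeR adjusted p of 1.0. All 3 intervals held 0. Those for MYH6 ENSDARG00000079564 and tbx5a also held a change as large as the one between the genotypes in vehicle, and that for myl7 did not. With each library left out in turn, the interaction term ran from −0.38 to −0.015 for myl7. It ran from −0.41 to −0.22 for MYH6 ENSDARG00000079564 and from 0.20 to 0.69 for tbx5a. Rapamycin and vehicle comparisons in WT larvae share the WT vehicle libraries with the genotype comparison in vehicle.

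The spread among libraries differed between rows and groups. In WT larvae given rapamycin the coefficient of variation was 39.6% for tbx5a, 53.1% for gata4 and 82.5% for TNNT2 ENSDARG00000100694, against 6.18% for gata5 and 10.4% for MYH6 ENSDARG00000079564. In apc mutants given vehicle it was 3.93% for gata5, 13.6% for myl7 and 23.1% for gata4. The gata5 row was thus among the most even across all 12 libraries, from 10.7 to 14.1 CPM.

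Genes with the most similar course over the 12 libraries were sought for myl7 and nppa, as a description without a test. Likeness was the root mean square difference of log2 CPM, with 0.1 added to each value and each gene centred on its own mean, over the 17435 tested genes whose counts averaged 100 or more per library. For myl7, whose own root mean square around its mean was 0.564, the nearest were CHRNB3 (0.108), metap2a (0.109), STMN1 (0.113), aep1 (0.124) and RBP4 (0.130). The cardiomyocyte rows themselves were left out of the ranking and could not appear among the nearest. Between apc mutants and WT larvae given vehicle, the 5 genes had log2 fold changes of −1.08 to −0.83. Values near that of myl7 follow from the choice by likeness over these libraries. None of the 5 is a sarcomere gene. For nppa, whose own value was 0.215, the nearest were STXBP6 (0.0582), spa17 (0.0707), gstr (0.0821), CYRIB (0.0821) and ENSDARG00000090689 (0.0822). All points come from the same 12 libraries and share their depth and scaling.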

How the data were processed

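Total RNA from pools of larvae at 48 hpf was poly-A selected and sequenced as stranded libraries. The authors deposited estimated counts per Ensembl gene for 12 libraries, rounded to whole numbers and not scaled. The table is named for salmon and tximport and the methods describe STAR mapping to GRCz10. The counting tool and its handling of reads shared by paralogs are not given in the sources used here. Gene names came from the study's list of changed genes (1743 rows) or else from a table of Ensembl names (21193 rows), and 2966 rows had no name. RefSeq lists vmhc as a synonym of myh7, but the row named so in the Ensembl table is vmhcl in the study's list, so vmhc was left unmatched. For nkx2.5 a RefSeq synonym was used.

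In edgeR 4.0.16 (R 4.3.3), counts went through TMM normalization, filterByExpr (minimum count 10) and quasi-likelihood tests, and p-values were adjusted by Benjamini and Hochberg over all genes tested. The vehicle comparison used its 6 libraries (22335 genes), and the others used 1 model of 4 groups (22841 genes). Levels are CPM scaled by the TMM factors of all 12 libraries, which are not corrected for gene length, so levels of different genes are not compared. Standard errors and 95% intervals are those implied by the tests. Ratios were tested by exact permutation in Python 3.11.15 with SciPy 1.17.1. The fits were also run on simulated counts, drawn independently for each library. No result here rests on that run. Larvae came from 3 clutches. After subtraction of group means, the 18 pairs of libraries with the same replicate number had a mean correlation over genes of 0.383 (lowest 0.145). The 36 pairs with different numbers had a mean of −0.191 (highest −0.00087). The subtraction itself makes that mean negative when the first is positive, so it adds no evidence of its own. By the positive correlations the numbers pair the libraries, and a fit with the replicate block was run beside the main design.

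The cardiomyocyte genes and the lists were chosen with earlier results of these data known. Named genes are the cardiomyocyte genes, apc, and from each list up to 3 genes with the highest and 3 with the lowest log2 fold change at an adjusted p under 0.05 and a mean of at least 100 counts, plus the 5 nearest genes to myl7 and to nppa. Genes outside the rule, chosen with their values in view, were cmlc1, myl4, tnnt2d, tbx5b, il11a, cnn1b, myhz1.1 ENSDARG00000067990 and the natriuretic peptide genes nppal, nppcl and nppc. Of the names listed, 25 of 35 of the cardiac sarcomere (26 rows), 17 of 22 transcription factors (18 rows), 13 of 14 endocardial and endothelial, 5 of 5 epicardial, 19 of 23 skeletal muscle (20 rows) and 7 of 7 smooth muscle names had a row, and hcn4, prdm16 and myhz1.1 had 2 rows each. The alternatives tried comprised DESeq2 1.42.0, scaling by RLE or upper quartile, dropping the filter, a minimum of 10 counts in each library, other sets of libraries, no fold minimum, the replicate block and each library left out in turn.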

Additional observations from a re-analysis of the deposited data

How the results depend on the processing

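With 0 of the 11 cardiomyocyte rows called at 2-fold in vehicle, upper-quartile scaling gave 1, no fold minimum 4, and leaving out each library 0 to 1. At an adjusted p under 0.05 in vehicle, 4 rows became 2 with all 12 libraries in 1 model and 2 to 5 with a library left out (2 without WT vehicle replicate 1), and all genes fell to 3744 from 6333 in that 1 model. Under rapamycin the 2 rows called at 2-fold became 1 with upper-quartile scaling, 1 with the libraries of the 2 groups alone, 1 without WT rapamycin replicates 2 and 3 (chosen after seeing the data), 4 with no fold minimum, and 0 to 2 with each library left out (0 without WT rapamycin replicate 3, 1 without apc rapamycin replicate 2). At an adjusted p under 0.05 the 4 rows under rapamycin became 2 with the 2 groups alone and 3 to 6 with a library left out, and all genes became 1676 from 3972 with the 2 groups alone. No count over all genes is given for the fits with a library left out, so those row counts have no share beside them. DESeq2 called 2 of all genes for rapamycin in WT larvae and 2 for the interaction, where edgeR called 0. Signs turned only for values that were not called: the log2 ratio of the 2 myh6 rows in vehicle was 0.11 without apc vehicle replicate 1 (range −0.15 to 0.11), nkx2.5 in vehicle was 0.022 without WT vehicle replicate 2 (range −0.18 to 0.022), TNNT2 ENSDARG00000100694 under rapamycin was −0.018 with upper-quartile scaling and −0.50, −0.19 and −0.34 without apc rapamycin replicate 3, WT rapamycin replicate 1 and WT rapamycin replicate 2 (range −0.50 to 0.94), and for rapamycin over vehicle in apc mutants myl7 was −0.049 (range −0.049 to 0.15) and MYH6 ENSDARG00000079564 was 0.0024 (range −0.10 to 0.0024) without apc vehicle replicate 3 and tbx5a was 0.023 without apc vehicle replicate 2 (range −0.10 to 0.023). The cause of these changes was not tested. For rapamycin over vehicle and for the interaction, signs were followed only for myl7, MYH6 ENSDARG00000079564 and tbx5a. The replicate block left 0 rows called at 2-fold in vehicle and 2 under rapamycin, gave 5 rows at an adjusted p under 0.05 in vehicle (nppa was added) and 4 under rapamycin, and changed no other call of a cardiomyocyte row. In all genes it gave 8146 at an adjusted p under 0.05 in vehicle. The planned ratio of vmhc to myh6 could not be run, since no row was taken for vmhc. The ratio of the 2 rows named myh6 was given instead, and it is not read as ventricular against atrial myosin. Low counts limit TNNT2 ENSDARG00000100694 and gata4 most.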
